A study of Mus musculus with 8 samples.

Results

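The genes examined were the expressed neighbours of Pkn2 on mouse chromosome 3. They were chosen by position and level: rows of the deposited abundance table with a gene start from 132800000 to 152900000 on GRCm38 and a mean of at least 1 TPM (a transcript abundance scaled for length and depth) over all 8 libraries, Pkn2 itself left out. This gave 82 genes of the 322 rows in the window and of 55400 rows in all. The mean over all libraries does not use the difference between genotypes, so that difference could be tested. A gene near the limit can still pass through 1 group alone. At the edge of the rule, 4930539J05Rik had a mean of 1.05 TPM. It was at 1.24 TPM in the Pkn2 knockout (cKO) and 0.851 TPM in the control libraries, and was not called. Mcoln3 had a mean of 1.17 TPM, while Ak5 and Gm5857, at 0.912 TPM each, were left out.

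Poly(A) RNA was sequenced from ventricular tissue of C57BL/6N mouse embryos at E10.5. The cKO group was 4 libraries from Pkn2 fl/fl embryos carrying XMLC2-Cre, a driver active in cardiomyocytes, and the control group was 4 libraries from Pkn2 fl/fl littermates without Cre. Both groups therefore carried the floxed allele, and differed by the Cre transgene. No agent was given. Cells other than cardiomyocytes in the tissue are not targets of the driver, and in RNA from whole tissue fewer cells of a type and less RNA per cell cannot be told apart. Libraries held 47559845 to 56660938 counts, and all 82 genes had enough counts to be tested (a total of at least 8). The study's methods count animals or embryos as replicates, and the labels do not say whether a library held 1 embryo or several. The p-values measure the spread between these libraries. Of 10 cardiomyocyte markers, 5 were higher and 5 lower in cKO and none was called, and their summed level was 37560 to 41009 CPM (counts scaled to the library total) in cKO and 37459 to 41667 CPM in control libraries. Mean log2 CPM of 20 endothelial markers was 5.76 to 6.24 in cKO and 5.40 to 5.60 in control libraries.

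PKN2 is a serine/threonine kinase of the protein kinase C-related family. Genes that lie near each other on a chromosome can share enhancers, and a change at a locus can in principle reach its neighbours as well as the gene that was targeted. The interval around Pkn2 holds genes of many kinds, among them the general transcription factor gene Gtf2b, the Z-disc genes Pdlim5 and Nexn, the endothelial gene Emcn, the BMP receptor gene Bmpr1b and the histone variant gene H2az1. The comparison asks which of them differed between cKO and control ventricles, and whether distance from Pkn2 went with the difference.

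Of the 82 neighbours, 3 differed between the genotypes: Npnt and Lpar3 fell and Emcn rose in cKO. All 3 lie at least 3.34 Mb from Pkn2, and no gene within 3 Mb was called. Over all genes tested 0.858% were called, and 1.39% of those with a mean of at least 1 TPM. Few of the 82 genes lie within 3 Mb, 7 under 1 Mb and 11 from 1 to 3 Mb. The place of the 3 calls is therefore not read as an effect of distance. To show what lies immediately before Npnt, Lpar3, Emcn and Pkn2, the 250 bases upstream of each transcription start were taken from RefSeq (GRCm38.p6). Its promoter table held 57 of the 82 neighbours and the 4 genes shown. For Emcn the RefSeq start lies 11 bases inside the gene as placed here. Npnt has 2 promoters listed, of which 1 is shown. Capitals mark GGGCGG or its reverse complement, the core of the GC box, and sequences read 5′ to 3′ on the strand of the gene. They lie at chr3:132950292-132950541 (Npnt, minus strand), chr3:146220711-146220960 (Lpar3, plus strand), chr3:137340828-137341077 (Emcn, plus strand) and chr3:142882005-142882254 (Pkn2, minus strand).
Npnt: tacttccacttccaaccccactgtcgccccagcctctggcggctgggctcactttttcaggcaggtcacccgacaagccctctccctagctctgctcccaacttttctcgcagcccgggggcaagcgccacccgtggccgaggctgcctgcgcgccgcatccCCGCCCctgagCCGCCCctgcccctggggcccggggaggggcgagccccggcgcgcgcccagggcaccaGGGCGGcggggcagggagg
Lpar3: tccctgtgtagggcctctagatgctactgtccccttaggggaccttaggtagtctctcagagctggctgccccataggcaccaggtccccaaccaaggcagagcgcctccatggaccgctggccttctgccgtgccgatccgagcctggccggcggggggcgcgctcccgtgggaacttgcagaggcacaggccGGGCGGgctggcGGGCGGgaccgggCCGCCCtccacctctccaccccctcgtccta
Emcn: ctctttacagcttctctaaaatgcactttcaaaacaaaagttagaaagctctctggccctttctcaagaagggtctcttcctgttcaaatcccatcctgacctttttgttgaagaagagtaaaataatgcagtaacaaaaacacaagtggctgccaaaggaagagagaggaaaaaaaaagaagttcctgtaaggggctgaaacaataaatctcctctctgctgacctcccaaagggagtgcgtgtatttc
Pkn2: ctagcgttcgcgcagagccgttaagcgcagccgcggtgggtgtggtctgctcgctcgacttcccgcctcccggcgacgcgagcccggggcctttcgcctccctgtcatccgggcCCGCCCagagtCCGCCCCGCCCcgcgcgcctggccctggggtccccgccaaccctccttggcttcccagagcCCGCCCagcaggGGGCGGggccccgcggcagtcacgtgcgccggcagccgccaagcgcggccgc

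In the 300-base windows that also take in the first bases of the transcript, GGGCGG was found 4 times at Npnt, 3 times at Lpar3, 5 times at Pkn2 and not at Emcn, on both strands together. Of all 32851 promoter windows of that length, 35.7% held it. TATAAA, TGACGTCA and CAGCTG were in none of the 4 windows, and 13.6%, 1.79% and 16.3% of all windows held them. These are matches of letters and were not tested as binding sites.

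Pkn2, which lies on the minus strand at 142790902 to 142882004, was measured at 83.1, 77.6, 79.6 and 84.3 CPM in cKO replicates 1 to 4. Control replicates 1 to 4 gave 133, 139, 152 and 153 CPM. The groups did not overlap, and the log2 fold change was −0.83 with a 95% interval from −0.96 to −0.70. Its change was the reference against which the nearest genes were read.

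Gtf2b, which encodes the general transcription factor TFIIB, ends 7.30 kb from Pkn2 and is the closest protein-coding neighbour. It was measured at 42.5, 41.4, 45.4 and 43.3 CPM in the cKO libraries and 47.3, 44.1, 42.3 and 43.8 CPM in the controls. The groups overlapped, and cKO stood at 97.3% of control (log2 fold change −0.04, 95% interval −0.16 to 0.08, edgeR adjusted p = 0.857). The interval leaves out a decrease as large as that of Pkn2.

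Kyat3, a kynurenine aminotransferase gene 44.0 kb from Pkn2, was at 7.96, 5.94, 7.38 and 6.68 CPM in the cKO libraries and 7.47, 6.08, 7.51 and 6.79 CPM in the controls. The groups covered nearly the same range, with a log2 fold change of 0.0052 (95% interval −0.26 to 0.27, adjusted p = 0.997 by edgeR). Pdlim5, whose protein binds α-actinin at the Z-disc, lies 0.395 Mb away and is among the most abundant genes of the interval. It was at 453, 451, 439.9 and 414 CPM in the cKO libraries and 417, 436, 453 and 457 CPM in the controls. Its groups overlapped throughout (log2 fold change −0.0045, 95% interval −0.12 to 0.11, adjusted p = 0.991 by edgeR).

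Bmpr1b, which encodes a type I receptor for bone morphogenetic proteins, lies 0.621 Mb from Pkn2. It was at 4.29, 5.46, 7.05 and 3.39 CPM in the cKO libraries and 6.52, 7.90, 7.30 and 7.83 CPM in the controls. Its cKO replicates 1, 2 and 4 lay below every control while replicate 3 lay among them, and the log2 fold change of −0.55 (standard error 0.179) did not pass the threshold (unadjusted p = 0.00723, adjusted p = 0.173 by edgeR). Unc5c, a netrin receptor gene 0.956 Mb away, was at 19.2 to 22.7 CPM in the cKO libraries and 18.4 to 23.3 CPM in the controls, with a log2 fold change of 0.02 (95% interval −0.16 to 0.20).

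Among these 5 genes, the 95% intervals of Gtf2b, Kyat3, Pdlim5 and Unc5c reached no lower than −0.26 on the log2 scale. That of Bmpr1b ran from −0.93 to −0.17 and took in the fold change of Pkn2.

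**Figure D1:**
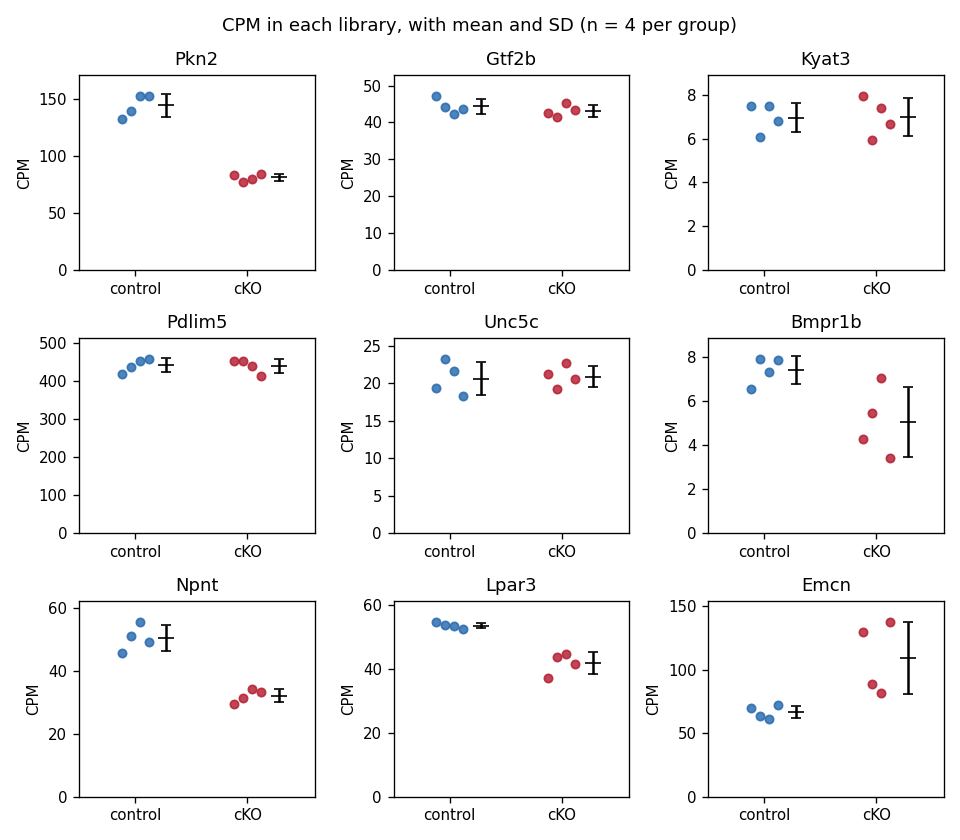
CPM (vertical axis, starting at 0) of Pkn2, of the 5 protein-coding genes within 1 Mb of it and of the 3 called neighbours, with each library as a point, controls in blue and cKO in red, and the mean with its SD (n = 4) as a black bar. The groups are apart for Pkn2, Npnt, Lpar3 and Emcn and overlap for Gtf2b, Kyat3, Pdlim5, Unc5c and Bmpr1b.

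On the other side, the first expressed protein-coding gene is Lmo4, a LIM-only transcriptional cofactor gene 1.31 Mb from Pkn2, at 47.7 ± 4.17 CPM in the cKO libraries and 46.8 ± 3.36 CPM in the controls (SD, n = 4 each). Hs2st1, whose enzyme sulfates heparan sulfate, was at 52.2 ± 3.14 and 51.5 ± 0.490 CPM. Sh3glb1, which encodes the membrane-shaping protein endophilin B1, was at 207 ± 3.64 and 211 ± 10.2 CPM. None of these was called and the groups of each overlapped, with 95% intervals of the log2 fold change within −0.14 and 0.18. Selenof, a selenoprotein gene of the endoplasmic reticulum, was at 153 ± 8.97 CPM in the cKO libraries and 165 ± 6.08 CPM in the controls (log2 fold change −0.11, 95% interval −0.23 to 0.01, adjusted p = 0.456 by edgeR).

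The 2 remaining members nearest to Pkn2 are pseudogene models. Gm25965, 93 bases long on the plus strand, lies inside the Pkn2 gene and had 2 to 26 counts per library, so that its log2 fold change of 0.86 had a 95% interval from −0.45 to 2.18. The sources do not give the strand setting of the counting, and reads of Gm25965 and of Pkn2 on that stretch cannot be told apart without it. Gm2574, 80.6 kb from Pkn2, had 19 to 49 counts per library.

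In the bin under 1 Mb, 0 of 7 genes were called and none had groups without overlap, and their median log2 fold change was −0.0045. From 1 to 3 Mb it was 0 of 11 genes, with a median of −0.03 and a range from −0.28 to 0.05. In each of these bins 1 gene had an unadjusted p under 0.05 in edgeR, namely Bmpr1b and Ccn1, and DESeq2 and limma-voom called neither. Bmpr1b was called in the edgeR fit without cKO replicate 3 and Ccn1 in the fit without cKO replicate 4. From 3 to 6 Mb, 2 of 33 were called (median −0.04), and from 6 Mb on, 1 of 31 (median −0.01). Among tested genes with a mean of at least 1 TPM, 1.39% were called and 9.28% had groups without overlap. At those shares a bin of 7 or 11 genes would mostly hold no call. Across the 82 genes, Spearman's rank correlation was 0.13 between distance and log2 fold change and 0.21 between distance and its absolute size. This is a correlation across genes of the same 8 libraries, which are not independent. Over the 75 genes with a mean of at least 1 CPM the values were 0.12 and 0.30. Neighbours at lower positions had a median of −0.04 over 39 genes and those at higher positions −0.01 over 42.

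**Figure D2:**
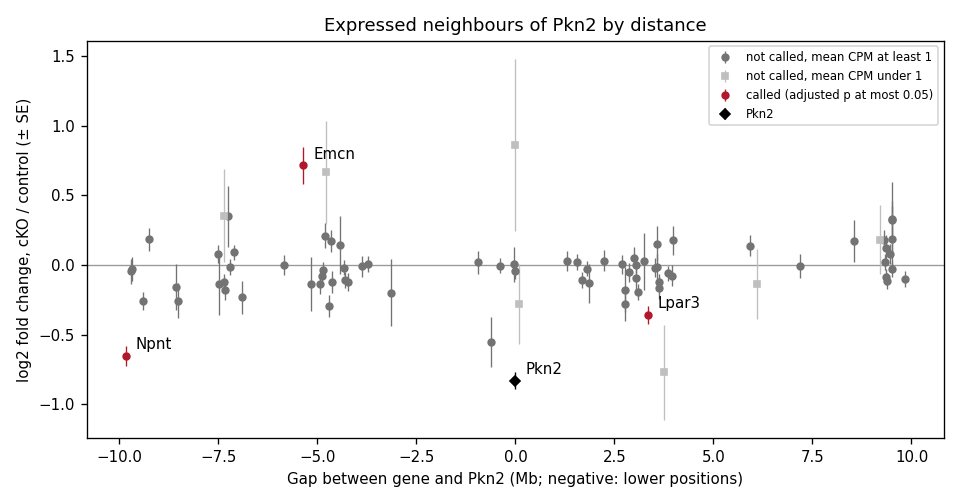
Log2 fold change (cKO over control, vertical axis, bars ± standard error) of each neighbour against its gap to Pkn2 in Mb, negative for lower positions, with called genes in red, genes with a mean under 1 CPM as light squares and Pkn2 as a black diamond. Pkn2 stands at −0.83 while the genes beside it with at least 1 CPM lie near 0 apart from Bmpr1b, and the called genes lie 3.34 to 9.84 Mb away.

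The 3 called genes were 3.66% of the 82 neighbours. Among all 26820 genes tested 0.858% were called, 0.515% higher and 0.343% lower in cKO, and among the 15383 tested genes that also had a mean of at least 1 TPM the share was 1.39%. On the rest of chromosome 3 at that level, 7 of 675 genes were called higher and 6 lower. The groups of 10 neighbours (12.2%) did not overlap, 3 of them higher and 7 lower, against 9.28% of the genes with a mean of at least 1 TPM. They were Nfkb1, Emcn and Dapp1 on the higher side and Npnt, Ppa2, Cisd2, 1110002E22Rik, Syde2, Lpar3 and Samd13 on the lower side. An unadjusted p under 0.05 was found for 20.7% of neighbours and 16.8% of those genes. The median log2 fold change of the neighbours was −0.023, against −0.015 over genes with at least 1 TPM and −0.017 over the rest of chromosome 3. Each call makes up 1 of 82 neighbours, so the share rests on single genes.

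**Figure D3:**
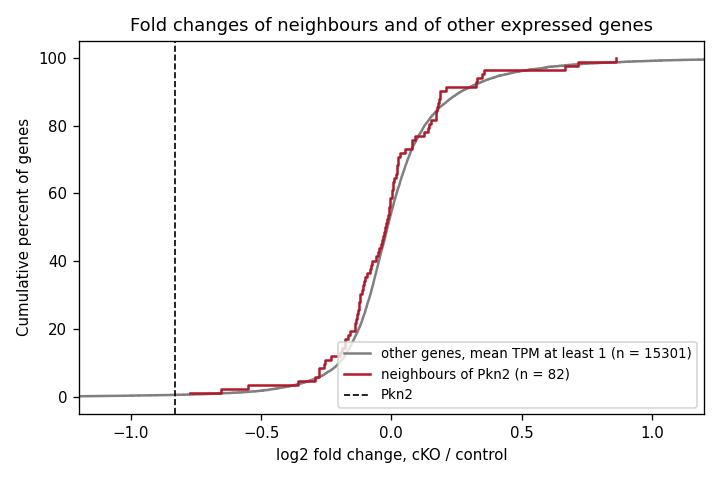
Cumulative percent of genes (vertical axis) by log2 fold change (horizontal axis) for the 82 neighbours in red and for the other tested genes with a mean of at least 1 TPM in grey, with Pkn2 as a dashed line. The curves run close together, and 78.0% of the neighbours lie within 0.2 of 0 on the log2 scale.

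Summed over the 82 neighbours, the level was 4714 ± 76.2 CPM in the cKO libraries and 4857 ± 130.0 CPM in the controls (SD, n = 4 each), with ranges from 4602 to 4772 and from 4715 to 4970 CPM that overlap. The protein-coding genes, 65 of the 82, held all 3 calls, and their median was −0.03. The other 17 were 7 pseudogene models, 4 lncRNAs and 6 that matched no entry of the RefSeq table.

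Npnt encodes nephronectin, a matrix protein that binds integrin α8β1. It lies on the minus strand at 132881745 to 132950291, 9.84 Mb from Pkn2 near the edge of the window. It was at 29.4, 31.2, 34.0 and 33.3 CPM in cKO replicates 1 to 4 and at 45.7, 51.0, 55.4 and 49.1 CPM in control replicates 1 to 4. The highest cKO value lay well under the lowest control value. It stood at 63.6% of control (log2 fold change −0.65, standard error 0.0706, adjusted p = 0.000589 by the quasi-likelihood test of edgeR, Benjamini-Hochberg adjusted over all genes). It kept its call with each library left out in turn, with values from −0.69 to −0.60.

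Lpar3 encodes a G protein-coupled receptor for lysophosphatidic acid and lies on the plus strand at 146220963 to 146286186. It was at 37.2, 43.8, 44.8 and 41.5 CPM in the cKO libraries and 54.6, 53.9, 53.3 and 52.5 CPM in the controls. The 4 controls lay close together and above every cKO library. In log2 terms Lpar3 fell, at −0.36 (standard error 0.0633, adjusted p = 0.0139 by edgeR), and cKO stood at 78.1% of control. The call was lost in 4 of 8 fits with a library left out (cKO replicate 1, or control replicate 1, 2 or 4), with adjusted p up to 0.0679 and values from −0.39 to −0.30.

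Emcn encodes endomucin, a sialomucin on the surface of endothelial cells, and lies on the plus strand at 137341067 to 137432185. It was at 129.7, 88.5, 81.8 and 138 CPM in the cKO libraries and 69.6, 63.4, 61.5 and 71.9 CPM in the controls. Replicates 1 and 4 of cKO were well above replicates 2 and 3, and all 4 were above every control. Emcn stood at 164% of control, or 0.72 ± 0.131 (standard error) on the log2 scale, with an adjusted p of 0.0177 by edgeR. The call was lost without cKO replicate 1 and without each of the 4 controls in turn, with adjusted p up to 0.0711 and values from 0.59 to 0.83. With limma on the log2 TPM values, which called 2 or 5 genes in all depending on the pseudocount, Npnt, Lpar3 and Emcn kept their direction and were not called (adjusted p up to 0.127, 0.167 and 0.243).

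Of 20 endothelial and endocardial markers elsewhere in the genome, 20 had a higher mean in cKO and 7 were called, with a median log2 fold change of 0.37. The log2 fold changes of Cldn5 (1.35, adjusted p = 0.0951), Sox17 (1.22, adjusted p = 0.0205) and Robo4 (0.90, adjusted p = 0.0566, all by edgeR) were above that of Emcn, and those of the other 17 were below it. Their summed level was 2161 to 2700 CPM in cKO libraries and 1707 to 2018 CPM in controls, and none was at 0 in either group. Measured relative to the mean of these markers in the same library, Emcn was at 0.76 ± 0.14 in cKO and 0.51 ± 0.080 in controls on the log2 scale (SD, n = 4 each), a difference of 0.25 with an exact permutation p of 0.0286 (two-sided), the lowest these group sizes allow. This ratio was chosen after the values were seen.

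**Figure D4:**
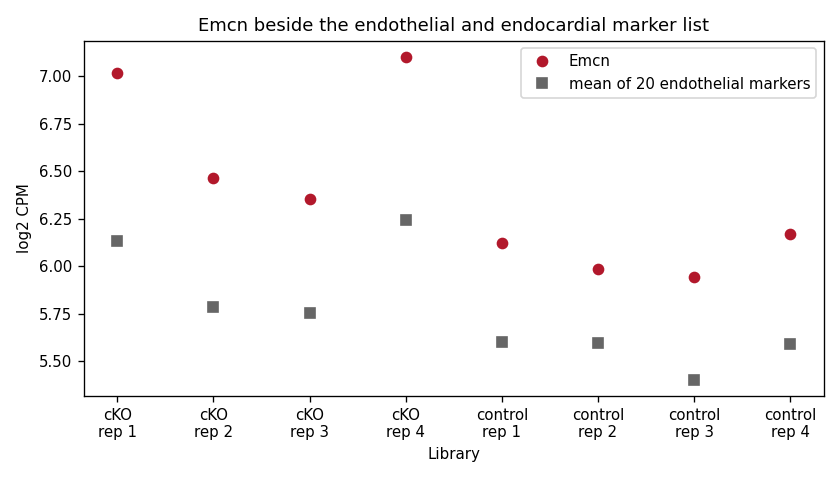
Log2 CPM (vertical axis) in each of the 8 libraries of Emcn, as red circles, and of the mean of 20 endothelial and endocardial markers, as grey squares. Both are highest in cKO replicates 1 and 4, and Emcn is 0.60 to 0.89 above the marker mean in cKO and 0.39 to 0.58 above it in controls.

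Macrophage markers had positive fold changes (10 of 10, 2 called) with a median of 1.78 on the log2 scale, at 47.4 to 74.1 CPM in sum in cKO and 31.2 to 40.8 CPM in controls, with Tyrobp at 0 in 1 control library. Lyz2 was the largest part of these sums in every library, at a log2 fold change of 0.29. Mean log2 CPM of the 10 macrophage markers did overlap between the groups, at 0.28 to 2.03 in cKO and −1.30 to 0.38 in control libraries. Of 6 epicardial markers, 6 had negative fold changes and none was called, at 255 to 372 CPM in the cKO libraries and 345 to 391 CPM in the controls. Summed erythroid markers ran from 1380 to 4853 CPM in the cKO libraries and 1518 to 4696 CPM in the controls, and none of the 8 was called, nor any of 6 cushion mesenchyme markers. Of 5 hepatic markers tested, 4 had negative fold changes, the median was −1.74 on the log2 scale, 4 had an unadjusted p under 0.05 and none was called by edgeR. Their sums were 13.1 to 19.4 CPM in the cKO libraries and 14.3 to 42.7 CPM in the controls, and Afp ran from 0.0829 to 0.833 CPM and from 0.249 to 15.9 CPM. The part of these cells in the levels of Npnt and Lpar3 was not tested.

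The lists of neighbours by function were chosen with earlier results of these data known. Of 5 neighbours in an endothelial list, 5 had positive fold changes, with a median of 0.14, and 1 was called, Emcn. Among them Lmo4 and Unc5c were near 0 (0.03 and 0.02) and changed sign when some single libraries were left out. Over the genes with a mean of at least 1 TPM, 6995 of 15383 had positive fold changes. Adgrl4, an adhesion receptor gene expressed in endothelium, was at 17.3, 9.70, 11.9 and 9.68 CPM in the cKO libraries and 10.7, 10.2, 10.8 and 11.4 CPM in the controls, and cKO replicate 1 was the highest library (log2 fold change 0.17, adjusted p = 0.730 by edgeR). Adgrl2, the latrophilin 2 gene, had a log2 fold change of 0.14 (adjusted p = 0.486). Npnt had been placed in the list of sarcomere, Z-disc and actin genes although it is a matrix gene. That list had 4 of 5 negative fold changes and 1 call, Npnt. Of the 4, Pdlim5 was near 0, at −0.0045, and changed sign in 10 of the alternative fits. Nexn, which encodes the actin-binding protein nexilin and lies 9.35 Mb from Pkn2, was at 411 to 430.1 CPM in the cKO libraries and 417 to 478 CPM in the controls (log2 fold change −0.08, adjusted p = 0.625). Prkacb, a catalytic subunit gene of protein kinase A, was at 81.6 to 88.8 CPM and 83.4 to 91.7 CPM.

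Of the Wnt, BMP and matricellular genes, 3 of 3 had negative fold changes and none was called. Ccn1, which encodes a matricellular protein, was at 31.0, 36.4, 31.5 and 48.4 CPM in the cKO libraries and 53.6, 39.9, 41.6 and 43.6 CPM in the controls. Its cKO replicate 4 lay among the controls (log2 fold change −0.28, adjusted p = 0.356 by edgeR). Cxxc4, an inhibitor of Wnt signalling, had a log2 fold change of −0.25 (adjusted p = 0.423).

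No gene of the other lists was called in the edgeR fit of all 8 libraries. Among 6 chromatin and cell division genes, 3 with positive and 3 with negative fold changes, the median was −0.0023, and H2az1, the neighbour with the highest TPM, was at 249 ± 26.8 CPM in the cKO libraries and 273 ± 12.2 CPM in the controls (SD, n = 4 each). The kinetochore motor gene Cenpe and Tet2, which encodes an enzyme that oxidizes methylcytosine, had log2 fold changes of 0.08 and 0.19 (adjusted p = 0.706 and 0.360 by edgeR). Of the translation and secretion list, 4 genes were members, and its secretion genes Sec24b, Sec24d and Ostc were not. The 4 members had values from −0.17 to −0.11, with Eif4e, the cap-binding factor gene, at −0.12, Rpf1, a ribosome production factor gene, at −0.17, and Metap1, which encodes a methionine aminopeptidase, at −0.11 (adjusted p from 0.386 to 0.496 for these 3).

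Of 6 mitochondrial and lipid genes, 1 had a positive and 5 a negative fold change. Ppa2, the gene of the mitochondrial inorganic pyrophosphatase, was at 31.4, 32.6, 36.8 and 30.3 CPM in the cKO libraries and 39.1, 38.1, 38.8 and 40.8 CPM in the controls. Its groups did not overlap, yet the log2 fold change of −0.26 missed the threshold (unadjusted p = 0.00144, adjusted p = 0.0869 by edgeR). DESeq2, edgeR with no filter on low counts and edgeR without cKO replicate 3 did call Ppa2. Cisd2, which encodes an iron-sulfur protein of the endoplasmic reticulum and mitochondria, also had groups without overlap, at 45.9 to 53.5 and 53.9 to 55.7 CPM (log2 fold change −0.12, adjusted p = 0.403). Mttp, the microsomal triglyceride transfer protein gene, had a log2 fold change of 0.17 (adjusted p = 0.379).

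Of the interferon and inflammation list, Nfkb1, Slc39a8 and Bcl10 were members, and its Gbp and Ifi44 genes were not. Nfkb1 was at 78.2 to 85.3 CPM in the cKO libraries and 73.2 to 76.9 CPM in the controls, without overlap (log2 fold change 0.09, adjusted p = 0.529 by edgeR). Slc39a8, a metal ion transporter gene, had a log2 fold change of −0.23 and Bcl10, an adaptor gene of NF-κB signalling, one of 0.0012. Of 7 ubiquitin and signalling adaptor genes, 2 had positive and 5 negative fold changes. Ube2d3, a ubiquitin-conjugating enzyme gene, had a log2 fold change of −0.18 (adjusted p = 0.284), Gng5, a G protein γ subunit gene, one of −0.12 (adjusted p = 0.379) and Usp33, a deubiquitinase gene, one of 0.08 (adjusted p = 0.731).

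By fold change, the neighbours with at least 1 CPM that stood highest after Emcn were Oaz2-ps (0.35), Gm43857 (0.33), Gm43858 (0.33) and Dapp1 (0.21), none of them called. Oaz2-ps lies inside Manba, and Gm43857 and Gm43858 inside Usp33, so that reads could belong to the longer gene. Dapp1, a phosphoinositide-binding adaptor gene, was at 14.5 to 17.5 CPM in the cKO libraries and 12.3 to 14.4 CPM in the controls. Lowest after Npnt were Bmpr1b, Lpar3, 1110002E22Rik (−0.29, adjusted p = 0.0918 by edgeR) and Ccn1. DESeq2 and edgeR with no filter on low counts did call 1110002E22Rik. Of the 82 neighbours, 45 overlapped another row of the table.

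The deposited tables differed for pseudogenes. Gm2574 had a mean of 415 TPM and Gm2451 one of 328 TPM, among the 5 highest of the neighbours, while their means were 0.707 and 1.04 CPM. This made 587 and 315 TPM per CPM, where the 65 protein-coding neighbours ran from 0.191 to 2.49 with a median of 0.590. Gm2574 is 1002 bases long and Gm2451 999. The other pseudogenes with at least 1 CPM, Rpl36a-ps2, Rpsa-ps10, Gm10288 and Oaz2-ps, had 3.37 to 5.25 TPM per CPM. In TPM, Gm2574 was at 420 ± 33.9 in cKO and 410.3 ± 21.3 in controls, and Gm2451 at 334 ± 27.8 and 322 ± 17.1 (SD, n = 4 each). They are members by TPM, and levels of such copies are uncertain.

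**Figure D5:**
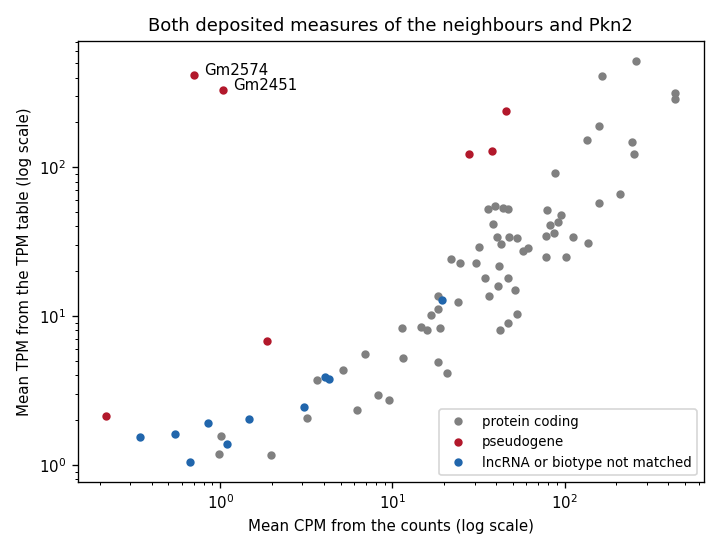
Mean TPM over 8 libraries (vertical axis, log scale) against mean CPM from the counts (horizontal axis, log scale) for the 82 neighbours and Pkn2, with protein-coding genes in grey, pseudogenes in red and the rest in blue. Most genes follow 1 band, and Gm2574 and Gm2451 stand at 415 and 328 TPM with about 1 CPM.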

How the data were processed

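Poly(A) RNA of 8 ventricular samples was sequenced as paired-end reads. Unnormalized counts of reads for each symbol and a TPM table were deposited by the authors. The methods give the nf-core/rnaseq workflow with GRCm39, and the submitters' processing notes name Trim Galore 0.6.7, HISAT2 2.2.1, StringTie 2.2.1 and featureCounts. The strand setting of the counting is not given in the sources used here. Positions in the TPM row names match GRCm38. Among 37926 genes that both builds place, 85.8% started within 1000 bases of the GRCm38 start and 3.26% of the GRCm39 start. Members were read from the TPM table and joined to the counts by symbol. The members, lists and tests were chosen with earlier results of these data known.

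Counts of genes with a total of at least 8 were fitted in R 4.3.3 by the quasi-likelihood method of edgeR 4.0.16 with TMM scaling and condition as the only term, with Benjamini-Hochberg adjustment over all genes tested, and called at an adjusted p of at most 0.05. CPM use TMM-scaled totals, and log2 CPM a prior count of 2. Intervals of 95% use the standard error and degrees of freedom of that fit. Genes named were Pkn2, the called members, the 5 nearest on each side, the 5 highest and 5 lowest fold changes above 1 CPM, the 5 highest in TPM and the 3 with the lowest p of each list. Gm25965, Syde2, Samd13 and single markers of other cell types were named in addition, after their values were seen. Alternatives were DESeq2 1.42.0, its size factors in edgeR, limma-voom (limma 3.58.1), filterByExpr, no filter, limma on log2(TPM + 1) and log2(TPM + 0.1), a replicate block, each library left out, and other limits of the rule. The edgeR step was tested on simulated data. The replicate numbers did not pair the samples.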

Additional observations from a re-analysis of the deposited data

Results flagged for a closer look

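Among the 84 groups of 4 values of the named genes, 3 held a library far from the other 3 by Dixon's ratio, where chance flags about 1 in 20 groups. Nexn was at 411 CPM in cKO replicate 4 and at 427 to 430.1 CPM in the other cKO libraries. Prkacb was at 83.4 CPM in control replicate 1 and at 90.4 to 91.7 CPM in the other controls. Nfkb1 was at 85.3 CPM in cKO replicate 4 and at 78.2 to 79.2 CPM in the other cKO libraries.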

How the results depend on the processing

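Of the neighbours, 6 were called with DESeq2 (5 lower) and 5 with no filter on low counts (4 lower). Over the whole table, 867 genes were called with DESeq2 (5.46% of those given an adjusted p) and 878 with no filter (2.62%). The DESeq2 calls were Npnt, Lpar3, Emcn, Ppa2, 1110002E22Rik and Syde2, and those with no filter were the same apart from Syde2. Under limma on log2(TPM + 1) and on log2(TPM + 0.1), 0 were called, 0 higher and 0 lower, with 14 at an unadjusted p under 0.05 in each and 2 and 5 genes called over the whole table. With single libraries left out, 1 to 5 were called, 0 to 1 higher and 1 to 4 lower. It was 1 without cKO replicate 1 or control replicate 1, 2 or 4, and 5 without cKO replicate 3. Over all genes, 0.255% to 2.82% were called in these fits, the most without cKO replicate 3. Within 5 Mb of Pkn2, 1 was called, 0 higher and 1 lower. With the replicate block 3 were called, Npnt, Emcn and Lpar3 as without it, and over all genes 380 instead of 230; the correlations of same-numbered libraries, as deviations from group means over 14302 genes, were −0.19, −0.03, 0.0056 and −0.14. The median of the bin from 3 to 6 Mb moved to 0.0056 with limma on log2(TPM + 0.1), and the median of all 82 was 0.0017 and 0.0027 on the 2 TPM scales; it and the other medians moved by less than the spread between replicates under the alternatives run. Pkn2 kept its call in every fit run. The cause was not tested.

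Some fold changes changed sign, none of them called, and most of these were near 0 in the edgeR fit of all 8 libraries. Further from 0 in that fit were Gm2574 (−0.28, standard error 0.29), Gm2451 (−0.20, standard error 0.24) and Adgrl4 (0.17, standard error 0.15). Kyat3 was at −0.0028 with limma-voom and at −0.0207 and −0.0244 with limma on log2(TPM + 1) and log2(TPM + 0.1). Pdlim5 was at 0.0015 with DESeq2 size factors in edgeR and with DESeq2, 0.0058 with filterByExpr, 0.0027 with no filter, and 0.0721 and 0.0723 on the TPM scales. On the same scales Gm2574 was at 0.0317 and 0.0318, Sh3glb1 at 0.0175 and 0.0178, and Gm2451 at 0.0487 and 0.0488. Bcl10 was at −2.5e-05 with limma-voom. With single libraries left out, values ran from −0.0567 to 0.0842 for Kyat3, −0.0262 to 0.0314 for Pdlim5, −0.0309 to 0.0913 for Unc5c, −0.0099 to 0.0889 for Lmo4, −0.0020 to 0.0690 for Hs2st1, −0.0420 to 0.0062 for Sh3glb1, −0.0432 to 0.2763 for Adgrl4 and −0.0165 to 0.0326 for Bcl10.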
